A study of Mus musculus with 9 samples.

Results

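C2C12 cells with a Cry2 knockdown were compared with control C2C12 cells at days 0, 3 and 5 of muscle differentiation. The comparison takes 6 of the 9 libraries of the series, 3 from the Cry2 knockdown and 3 from the control, matched by day. C2C12 is a mouse myoblast line that divides as single cells and fuses into multinucleated, contractile myotubes once serum is lowered. The groups were Cry2 knockdown cells at days 0, 3 and 5, Cry1 knockdown cells at the same days, which served to estimate the spread and as a second reference, and control cells at the same days. Every group was grown with 10% fetal bovine serum before day 0, and from day 0 with 5% horse serum and a 1% supplement of insulin, transferrin and selenium. PolyA RNA was sequenced from 1 library for each genotype and day. The labels give neither the agent of the knockdown nor what the control cells received, and do not say whether a line is 1 clone or how many cultures stand behind a genotype.

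Cryptochromes are the late repressors of the circadian clock. CLOCK and BMAL1 switch on genes that carry an E-box in their promoters, among them the Per and Cry genes and the Rev-erb and Bhlhe repressors. The PER and CRY proteins then return to the nucleus and stop CLOCK and BMAL1, and casein kinases and F-box proteins set how long they last. CRY2 also acts outside the clock, as an adaptor that brings other proteins, such as MYC, to a ubiquitin ligase. In a myoblast, leaving the cell cycle comes before fusion, so cyclins, replication genes and contractile genes move in opposite directions as the cells differentiate.

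Library totals were between 4731020 and 6412279 counts, the day 3 Cry2 knockdown library being the smallest. CPM are counts scaled to library size with normalisation factors, and 3 counts, the most that a count of 0 allows, are worth 0.440 to 0.635 CPM by library. Muscle identity was plain in both genotypes: desmin (Des) was between 1777 and 4216 CPM in Cry2 knockdown cells and between 1638 and 3430.0 CPM in the control, and the embryonic myosin gene Myh3 reached 7465 CPM in Cry2 knockdown cells and 6819 CPM in the control at day 5. Of 17 endothelial and blood cell markers 2 had enough counts to be tested, and Pecam1, Cdh5 and Ptprc stayed at or below 0.212 CPM in all 6 libraries. In cultures sequenced in bulk, fewer cells of a type and less RNA per cell cannot be told apart. No genotype and day has a second library, so a p-value here sets the difference between genotypes against its disagreement between days, with the spread estimated over all 9 libraries. The knockdown, and any difference between the cultures that lasted through all 3 days, cannot be told apart.

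Knockdown of Cry2 left few genes past the threshold. Of 12752 genes tested, 3 (0.0235%) reached a Benjamini-Hochberg adjusted p under 0.05: the target Cry2 fell (1 gene, 0.00784%), and Col23a1 and Adgrg1 rose (2 genes, 0.0157%). At an unadjusted p under 0.05 there were 1577 genes (12.4%), 739 of them higher (5.8%) and 838 lower (6.57%). Fitted values here and below are log2 fold changes over the 3 days, each with its SE. At an adjusted p under 0.1 there were 47 genes, 17 higher and 30 lower. The median log2 fold change of all genes was -0.0011, and 50.2% of genes were below 0.

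**Figure D1:**
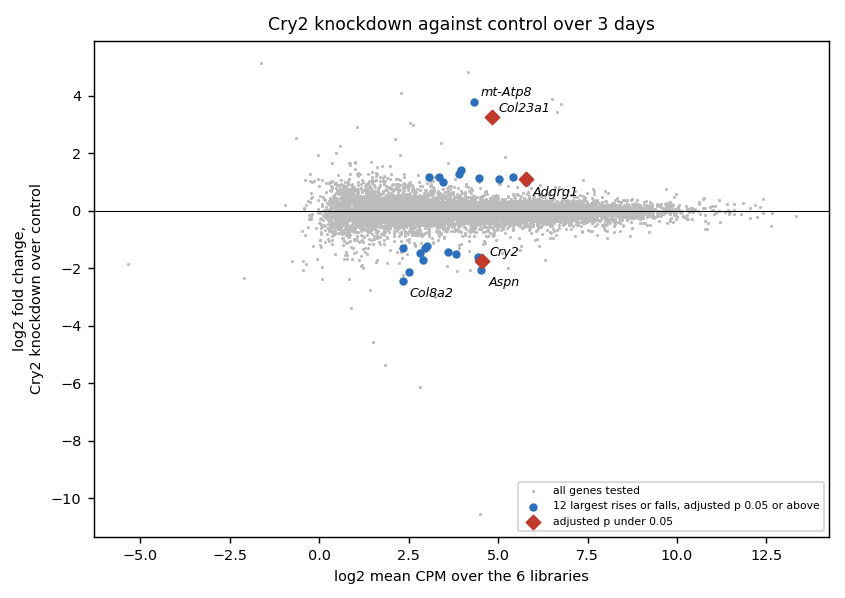
Log2 fold change of Cry2 knockdown over control, fitted over the 3 days, against the log2 mean CPM of the 6 libraries, 1 point for each of 12752 genes tested. Red diamonds are the 3 genes at an adjusted p under 0.05, and blue points are the other genes among the 12 largest rises and 12 largest falls. Col23a1 stands at 3.27 and Cry2 at -1.74, while most genes lie near 0.

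Cry2 (ENSMUSG00000068742, chromosome 2, 92403646 to 92434043, minus strand, mm10) was at 7.27, 8.26 and 16.6 CPM in Cry2 knockdown cells at days 0, 3 and 5, at 28.8, 37.1 and 68.1 CPM in the Cry1 knockdown and at 19.2, 39.6 and 48.9 CPM in the control. The Cry2 knockdown was the lowest of the 3 genotypes at every day, and its highest library lay below the lowest control library. The fitted log2 fold change was -1.74 ± 0.17 (SE; n = 3 libraries of each genotype; adjusted p = 0.0214 by the quasi-likelihood test of edgeR). Within a day the Cry2 level was 0.384, 0.212 and 0.343 times the control level at days 0, 3 and 5. Against the Cry1 knockdown the log2 fold change was -2.05 ± 0.17 (adjusted p = 0.00142). Leaving out the day 3 or day 5 knockdown library, or the day 5 control, ended the call against the control, with an adjusted p of up to 0.237.

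Col23a1 (ENSMUSG00000063564, chromosome 11, 51289920 to 51583918, plus strand) encodes collagen XXIII, a collagen that spans the cell membrane and can be shed from it. It was at 0.646, 45.3 and 109 CPM in Cry2 knockdown cells and 0.587, 5.71 and 8.16 CPM in the control at days 0, 3 and 5. At day 0 both genotypes were near the floor of 3 counts, and they stood apart at days 3 and 5, when the Cry2 knockdown stood 7.74 and 13.2 times as high. Col23a1 rose by a log2 fold change of 3.27 ± 0.28 (adjusted p = 0.0156). The Cry1 knockdown, at 0.148, 4.82 and 10.1 CPM, was close to the control, and the rise over the Cry1 knockdown was 3.29 ± 0.28 (adjusted p = 0.00142). Leaving out either genotype's day 3 or day 5 library ended the call, with an adjusted p of up to 0.246.

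Adgrg1 (ENSMUSG00000031785, chromosome 8, 94974751 to 95014217, plus strand) encodes GPR56, an adhesion G protein-coupled receptor known for its roles in the developing cortex and in myoblast fusion. It was at 58.0, 114 and 49.0 CPM in Cry2 knockdown cells, 18.8, 50.4 and 19.6 CPM in the Cry1 knockdown and 21.3, 60.3 and 25.6 CPM in the control. All 3 genotypes peaked at day 3, and the Cry2 knockdown was 2.71, 1.88 and 1.91 times the control at days 0, 3 and 5. The rise was 1.10 ± 0.12 on the log2 scale over the control (adjusted p = 0.0288) and 1.37 ± 0.12 over the Cry1 knockdown (adjusted p = 0.00142). It did not hold without the knockdown libraries of day 3 or 5, or without any 1 of the 3 controls, with an adjusted p of up to 0.237. In a fit of the 6 compared libraries alone, 4 genes passed, and Col23a1 was the one of these 3 among them; with no term for day, no gene passed (151 genes at an unadjusted p under 0.05).

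**Figure D2:**
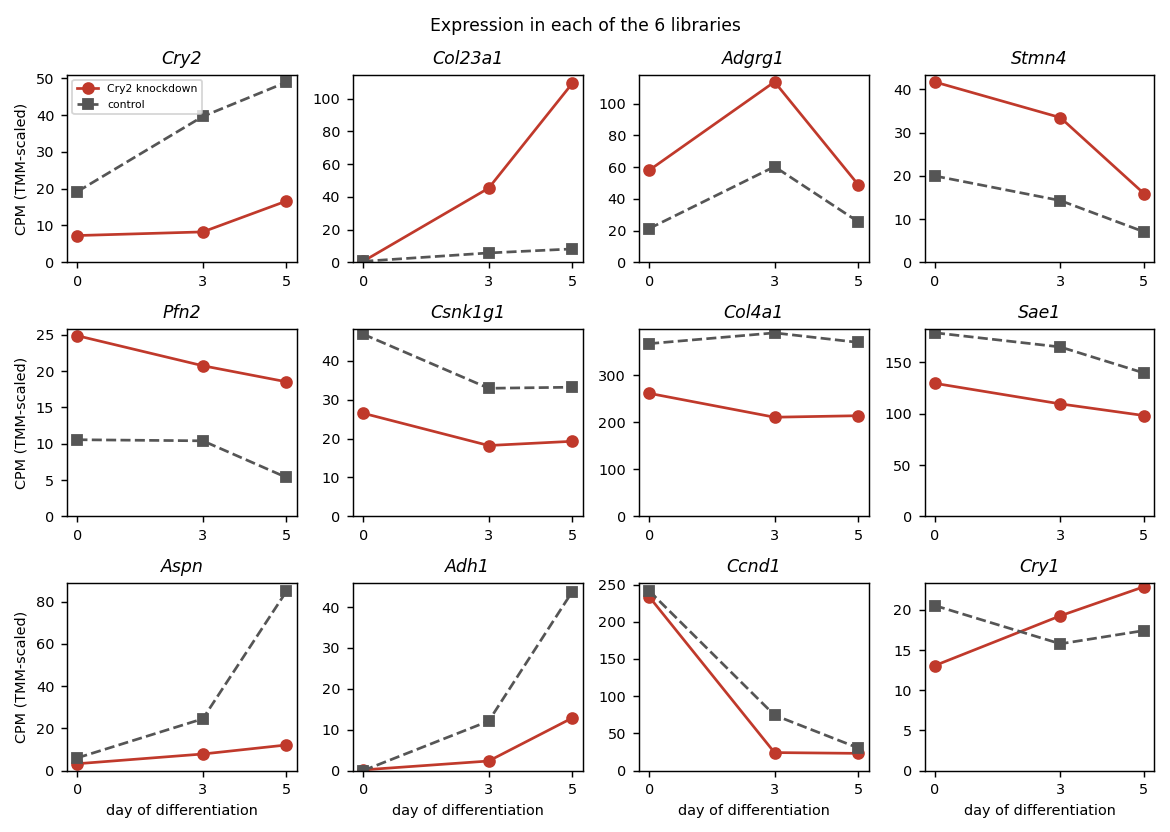
Level of 12 genes in CPM (linear axis from 0) at days 0, 3 and 5, 1 point per library, with the Cry2 knockdown as red circles and the control as grey squares. Cry2, Adgrg1, Stmn4, Pfn2, Csnk1g1, Col4a1 and Sae1 stand apart by genotype at each day. Col23a1, Aspn and Adh1 do so mainly at days 3 and 5 and Ccnd1 mainly at day 3, and the lines of Cry1 cross.

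The promoters of the 3 genes past the threshold are shown here because CRY2 acts through E-box promoters, together with that of Bhlhe41, the E-box gene of lowest p among the clock repressors and outputs. Each line is a RefSeq window of 300 bases on GRCm38.p6, from 250 bases before to 50 after an annotated start, 5' to 3' on the strand of the gene. Capitals mark the E-box CACGTG or the E'-box CACGTT, the second searched on both strands and therefore also as AACGTG.
Cry2, chr2:92434020-92434319, minus strand: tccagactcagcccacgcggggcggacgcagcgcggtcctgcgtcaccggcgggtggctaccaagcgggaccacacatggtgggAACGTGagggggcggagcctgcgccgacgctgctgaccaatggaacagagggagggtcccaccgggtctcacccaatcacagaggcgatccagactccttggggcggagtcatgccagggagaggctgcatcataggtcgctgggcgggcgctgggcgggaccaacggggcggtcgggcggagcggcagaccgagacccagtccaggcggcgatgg
Bhlhe41, chr6:145865371-145865670, minus strand: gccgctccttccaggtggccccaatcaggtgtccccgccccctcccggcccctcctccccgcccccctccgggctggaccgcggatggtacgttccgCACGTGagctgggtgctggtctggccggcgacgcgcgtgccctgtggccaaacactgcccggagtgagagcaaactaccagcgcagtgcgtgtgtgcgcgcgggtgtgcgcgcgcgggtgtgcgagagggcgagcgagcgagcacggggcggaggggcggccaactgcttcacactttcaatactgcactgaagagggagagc
Adgrg1, upstream start, chr8:94976859-94977158, plus strand: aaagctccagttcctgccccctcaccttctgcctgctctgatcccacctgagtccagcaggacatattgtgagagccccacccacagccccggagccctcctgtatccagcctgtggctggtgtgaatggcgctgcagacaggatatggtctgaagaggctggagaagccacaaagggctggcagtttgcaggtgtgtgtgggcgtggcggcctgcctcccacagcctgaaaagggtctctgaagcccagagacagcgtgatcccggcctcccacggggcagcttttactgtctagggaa
Adgrg1, downstream start, chr8:94984149-94984448, plus strand: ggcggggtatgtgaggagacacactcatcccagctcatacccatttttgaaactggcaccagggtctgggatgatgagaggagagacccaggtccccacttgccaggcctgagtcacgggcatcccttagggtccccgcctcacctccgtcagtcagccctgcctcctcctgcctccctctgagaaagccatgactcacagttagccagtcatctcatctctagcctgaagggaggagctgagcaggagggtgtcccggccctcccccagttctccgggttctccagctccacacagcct
Col23a1, chr11:51289670-51289969, plus strand: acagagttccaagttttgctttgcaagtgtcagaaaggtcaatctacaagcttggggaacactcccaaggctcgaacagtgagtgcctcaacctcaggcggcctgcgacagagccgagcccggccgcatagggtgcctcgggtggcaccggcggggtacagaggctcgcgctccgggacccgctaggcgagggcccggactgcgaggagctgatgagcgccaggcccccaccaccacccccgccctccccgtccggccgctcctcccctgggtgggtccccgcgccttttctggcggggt
Cry2 held 1 E'-box and no CACGTG, Bhlhe41 held 1 CACGTG, and neither Adgrg1 window nor that of Col23a1 held either. Both Adgrg1 windows lie downstream of the start of the gene given above, so the bases before that start were not searched. Over all 32851 windows, 2349 (7.15%) held CACGTG and 1539 (4.68%) held CACGTT. Of 13 clock repressors and outputs, 11 matched a window and 5 of these held CACGTG (Bhlhe41, Ciart, Cry1, Per1 and Tef). Of 9315 tested genes with a window, 1120 (12.0%) held it. Another motif, AGGTCA, bound by nuclear receptors, was present once in the Col23a1 window and in 16.3% of all windows, and the D-box TTATGTAA was in none of the 5 windows shown and in 0.938% of all. These letters describe the windows only.

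The 12 largest rises were taken among genes of at least 5 CPM on average with an unadjusted p under 0.01 and the same direction at all days. Only Col23a1 and Adgrg1 of them passed the threshold. In 4 of the 12 the 3 Cry2 knockdown libraries lay above the 3 controls, and 3.75% of all genes did not overlap in either direction. The 12 were chosen by size, p and direction in these same libraries, which favours such a gap, so the count is no separate result. Stmn4, a stathmin that destabilises microtubules, was at 41.7, 33.5 and 15.9 CPM in the knockdown, against 19.9, 14.3 and 7.04 CPM in the control (log2 fold change 1.15 ± 0.14, adjusted p = 0.0516). The lowest Stmn4 library of the knockdown was below the highest of the control, but within each day Stmn4 was at least 2-fold higher, as 2 genes of 10082 (0.0198%) were at all 3 days. It was lower still in the Cry1 knockdown, at 13.3, 9.81 and 3.01 CPM.

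Pfn2, the profilin of neurons that feeds actin filaments, was at 24.9, 20.8 and 18.5 CPM in Cry2 knockdown cells and 10.6, 10.4 and 5.38 CPM in the control, with no overlap (log2 fold change 1.30 ± 0.20, adjusted p = 0.0791). Efnb1, the membrane-bound ligand of Eph receptors, was at 28.3, 40.9 and 65.3 CPM in the knockdown, against 25.5, 18.0 and 17.6 CPM in the control: close at day 0, and 3.68 times the control at day 5 (log2 fold change 1.10 ± 0.29, adjusted p = 0.193). Wnt4, a secreted Wnt ligand, was likewise level at day 0 and higher later, at 2.10, 12.3 and 21.4 CPM in the knockdown, against 1.91, 4.20 and 8.53 CPM in the control (log2 fold change 1.17 ± 0.25, adjusted p = 0.151). Adamts16, a secreted metalloprotease, reached 67.1 CPM in the Cry2 knockdown at day 3, against 19.5 CPM in the control, and at day 5 143 CPM in Cry2 knockdown cells, against 95.5 CPM in the control. R3hdml, a gene with a predicted protease inhibitor domain, was at 0.646, 47.9 and 21.4 CPM in the knockdown, against 0.293, 14.8 and 9.45 CPM in the control, but the Cry1 knockdown was at 2.96, 44.1 and 17.3 CPM and the knockdowns did not differ past the threshold (adjusted p = 0.990). Qpct, which makes the pyroglutamate end of peptide hormones, was at 8.24, 11.9 and 22.7 CPM in the knockdown, against 4.55, 4.53 and 9.08 CPM in the control. Mybpc2, the fast myosin-binding protein C, was at 0.323, 10.4 and 32.3 CPM in the knockdown, against 0, 3.86 and 18.7 CPM in the control, while the Cry1 knockdown was higher than either at days 3 and 5, at 22.1 and 61.0 CPM. Another of the 12, mt-Atp8, rests on the day 0 Cry2 knockdown library and is described with the mitochondrial genes.

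Of the 12 largest falls, chosen in the same way, 7 were of genes that were higher at day 5 than at day 0 in the control. That share was not counted over all genes, so it is not a trait of the falls. Cry2 alone of the 12 passed the threshold. Of the 12, 4 did not overlap between genotypes (3.75% of all genes, in either direction), and here too the choice of the genes favours such a gap. Aspn, asporin, a small proteoglycan that binds collagen and TGF-beta, was at 3.23, 7.83 and 12.1 CPM in Cry2 knockdown cells and 6.01, 24.5 and 84.9 CPM in the control (log2 fold change -2.04 ± 0.29, adjusted p = 0.0574). The Cry1 knockdown had a similarly low level, 1.04, 4.99 and 13.3 CPM, and the knockdowns did not differ past the threshold (adjusted p = 0.461). Col8a2, a short-chain collagen, was at 0, 1.48 and 2.84 CPM in the knockdown, against 0.293, 4.37 and 21.3 CPM in the control (log2 fold change -2.44 ± 0.40, adjusted p = 0.0835), and here the Cry1 knockdown, at 0.445, 8.98 and 17.9 CPM, followed the control. Ptn, the heparin-binding growth factor pleiotrophin, was at 17.4, 13.6 and 2.08 CPM in the knockdown, against 43.4, 29.9 and 23.0 CPM in the control, with every knockdown library below every control (log2 fold change -1.61 ± 0.39, adjusted p = 0.172). F3, tissue factor, the starter of blood coagulation, was at 11.8, 2.75 and 5.11 CPM in the knockdown, against 30.4, 8.90 and 14.3 CPM in the control (log2 fold change -1.43 ± 0.36, adjusted p = 0.179). Cry2, Ptn, F3 and the gene models Gm6793 and 2310033P09Rik were the 5 genes of 10082 (0.0496%) at least 2-fold lower at all 3 days.

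Svep1, a large adhesion protein of the matrix, was at 7.92, 0.635 and 2.46 CPM in Cry2 knockdown cells and 18.5, 3.19 and 12.2 CPM in the control, so that days 3 and 5 of the knockdown held few counts. Gprin3, a G protein-regulated inducer of neurite outgrowth, was at 4.68, 8.05 and 7.38 CPM in the knockdown, against 9.24, 12.6 and 42.6 CPM in the control, with the difference widest at day 5. Etv1, an ETS transcription factor, was at 3.88, 3.81 and 1.32 CPM in the knockdown, against 7.63, 6.04 and 7.60 CPM in the control, again without overlap, and 18.7% of its 50-base words occur in other genes. Aff3, a factor of transcription elongation complexes, was at 0.485, 1.48 and 4.35 CPM in the knockdown, against 1.61, 5.88 and 20.4 CPM in the control, and Ces2g, a carboxylesterase, at 0.162, 2.12 and 8.70 CPM in the knockdown, against 0.293, 6.38 and 24.8 CPM in the control. In both of these the level was higher at day 5 than at day 0 in either genotype. Ces2g was lower in the knockdown at days 3 and 5, and its day 0 libraries held 1 count in the knockdown and 2 in the control. Aff3 was lower in the knockdown at each day. Igsf10, an immunoglobulin superfamily gene, showed the same course as Aff3. It was at 1.29, 2.96 and 9.84 CPM in the knockdown, against 1.76, 8.23 and 24.8 CPM in the control. However, 18.9% of the 50-base words of its transcript also occur in other genes. Jade2, a scaffold of a histone acetyltransferase, was at 9.85, 1.06 and 2.65 CPM in the knockdown, against 19.9, 1.51 and 11.5 CPM in the control. The fitted values of these 7 genes were between -2.14 and -1.23, with adjusted p-values from 0.0989 to 0.226.

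Several genes lay just outside the threshold, with adjusted p-values from 0.0516 to 0.0574. Csnk1g1, a casein kinase 1 of the membrane-anchored gamma type, was at 26.5, 18.2 and 19.3 CPM in Cry2 knockdown cells and 46.8, 32.9 and 33.2 CPM in the control. All 3 knockdown libraries were below all 3 controls (log2 fold change -0.82 ± 0.10, adjusted p = 0.0516), while the other 5 members of the family, including Csnk1d and Csnk1e, the kinases that act on PER proteins, had fitted values between 0.020 and 0.10. Sae1, a subunit of the enzyme that activates SUMO, was at 129.5, 109.5 and 98.2 CPM in the knockdown, against 179, 165 and 139.6 CPM in the control, also without overlap (log2 fold change -0.52 ± 0.070, adjusted p = 0.0522). Adh1, an alcohol and retinol dehydrogenase, was at 0.162, 2.33 and 12.9 CPM in the knockdown, against 0, 12.1 and 43.8 CPM in the control (log2 fold change -1.91 ± 0.25, adjusted p = 0.0516). Ndrg4, of the N-myc downstream-regulated family, was at 65.7, 356 and 352 CPM in the knockdown, against 46.4, 218 and 198 CPM in the control (log2 fold change 0.69 ± 0.091, adjusted p = 0.0516). Each of these, and Stmn4 and Col4a1, passed when low-count genes were filtered by the design matrix instead of by genotype, a setting under which 11 of 13094 genes passed.

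Genes of the extracellular matrix had mostly negative fitted values. Of 33 tested genes of fibrillar collagen and fibroblast matrix, 29 had a negative fitted value and 4 a positive one, with a median of -0.34 against -0.0011 for all genes, and 17 were lower at all 3 days against 16.0% of all genes. None passed the threshold, and 12 had an unadjusted p under 0.05 with a negative value (6.57% of all genes). The median ratio was -0.17, -0.23 and -0.32 at days 0, 3 and 5. Col1a1, a chain of collagen I, was at 486, 1367 and 2576 CPM in Cry2 knockdown cells and 947, 2170.0 and 3103 CPM in the control (log2 fold change -0.62 ± 0.14, adjusted p = 0.167), and its partner chain Col1a2 at 1472, 1922 and 2772 CPM in the knockdown, against 2007, 2605 and 3339 CPM in the control. Both chains were higher at day 5 than at day 0 in both genotypes and lower in the knockdown at each day. Vcan, the large proteoglycan versican, was at 255, 246 and 244 CPM in the knockdown, against 336, 386 and 345 CPM in the control, with no overlap (log2 fold change -0.51 ± 0.090, adjusted p = 0.0918). Bgn, biglycan, was at 959, 1728 and 2075 CPM in the knockdown, against 1323, 1993 and 3068 CPM in the control. Prelp, a leucine-rich matrix protein, was at 1.78, 12.7 and 12.5 CPM in the knockdown, against 1.76, 19.1 and 62.1 CPM in the control, apart mostly at day 5. The summed level of the list was 20480.0, 26700.0 and 46680.0 CPM in Cry2 knockdown cells and 21260.0, 37310.0 and 58370.0 CPM in the control at days 0, 3 and 5.

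The basement membrane, the sheet that surrounds each muscle fibre, had genes on both sides of the control. Of 20 tested genes, 15 were negative and 5 positive, with a median of -0.17, and none passed the threshold. The median ratio was 0.08, -0.52 and -0.07 at days 0, 3 and 5, with 7, 16 and 13 of the 20 genes lower. It was thus furthest below 0 at day 3, with 1 library of each genotype. The summed level of the list was 7142, 10360 and 11260 CPM in Cry2 knockdown cells and 6980, 10880 and 11280 CPM in the control. Both chains of collagen IV were lower: Col4a1 was at 262, 211 and 214 CPM in Cry2 knockdown cells and 367, 390.2 and 370.0 CPM in the control (log2 fold change -0.72 ± 0.089, adjusted p = 0.0516). Col4a2 was at 262, 155 and 187 CPM in the knockdown, against 321, 271 and 272 CPM in the control (log2 fold change -0.54 ± 0.10, adjusted p = 0.104). Neither gene overlapped between genotypes. Pxdn, peroxidasin, which crosslinks collagen IV, was at 134, 237 and 232 CPM in the knockdown, against 174, 335 and 338 CPM in the control (log2 fold change -0.47 ± 0.078, adjusted p = 0.0838). Nid2, a nidogen that ties laminin to collagen IV, was at 158, 77.1 and 136 CPM in the knockdown, against 235, 94.9 and 207 CPM in the control. Lamb3, the beta 3 chain of laminin-332 best known from skin, ran the other way at 27.1, 62.5 and 89.7 CPM in the knockdown, against 16.1, 36.3 and 46.3 CPM in the control (log2 fold change 0.84 ± 0.11, adjusted p = 0.0560). Of the 3 tested collagens that span the membrane, Col23a1 rose, Col25a1, the collagen needed by motor axons in muscle, was at 0, 0.423 and 11.2 CPM in the knockdown, against 0.147, 1.85 and 24.5 CPM in the control (log2 fold change -1.22 ± 0.28, adjusted p = 0.167), and Col17a1 had a fitted value of 0.44 ± 0.26. Of 24 genes that modify or crosslink collagen, 9 were positive and 15 negative. The prolyl hydroxylase genes P4ha3 and P4ha2 stood on opposite sides, at log2 fold changes of -0.78 ± 0.16 and 0.31 ± 0.076, with adjusted p-values of 0.131 and 0.172.

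**Figure D3:**
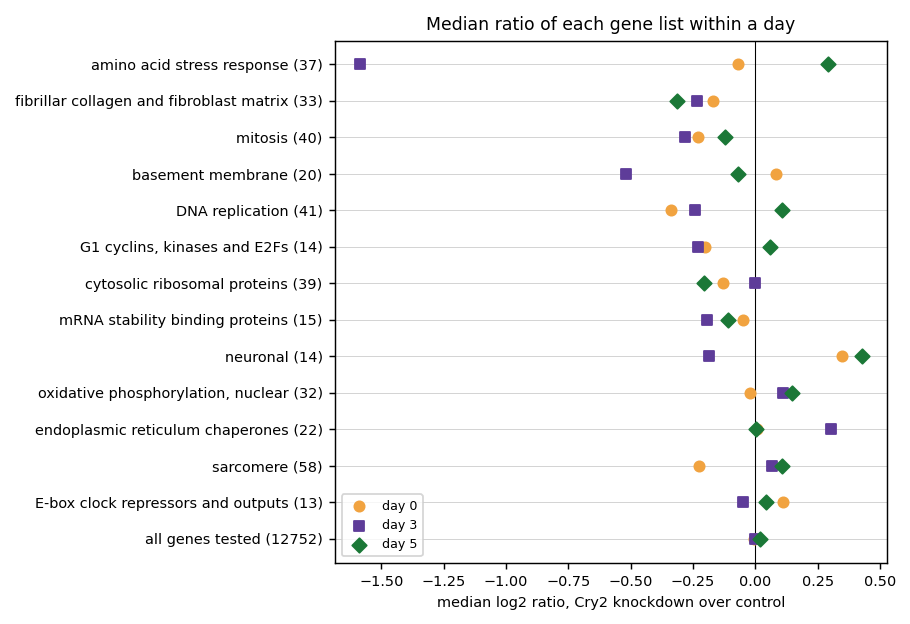
Median log2 ratio of Cry2 knockdown over control within each day, for 13 gene lists and for all genes tested, with the number of genes in brackets. Orange circles are day 0, purple squares day 3 and green diamonds day 5. The amino acid stress list stands at -0.07, -1.58 and 0.29 at days 0, 3 and 5, and the matrix list below 0 at each day.

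Most cell cycle genes had negative fitted values. Of 40 mitosis genes, 39 had a negative fitted value (median -0.23), 24 were lower at all 3 days (16.0% of all genes), 13 had an unadjusted p under 0.05 with a negative value (6.57% of all genes), and none passed the threshold. The median ratio was -0.23, -0.28 and -0.12 at days 0, 3 and 5. Foxm1, the transcription factor that drives the mitotic genes, was at 97.4, 13.1 and 11.2 CPM in Cry2 knockdown cells and 149, 25.5 and 11.5 CPM in the control (log2 fold change -0.58 ± 0.14, adjusted p = 0.171). Cenpe, a kinetochore motor, was at 90.8, 16.1 and 11.3 CPM in the knockdown, against 129, 24.2 and 12.2 CPM in the control (log2 fold change -0.44 ± 0.11, adjusted p = 0.172). Cdc25b, the phosphatase that starts mitosis, was at 128, 62.0 and 59.2 CPM in the knockdown, against 143, 90.5 and 73.6 CPM in the control. Foxm1 and Cenpe were apart at days 0 and 3 and close together at day 5, when both genes were at their lowest.

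Of 41 DNA replication genes, 35 were negative (median -0.17), 10 with an unadjusted p under 0.05 (6.57% of all genes were lower at that p), and none passed. Day by day the median ratio was -0.34, -0.24 and 0.11. Mcm10, which fires the replicative helicase, was at 22.9, 2.96 and 0.946 CPM in the knockdown, against 33.7, 4.53 and 1.30 CPM in the control. Cdt1, which loads that helicase, was at 38.1, 5.08 and 5.49 CPM in the knockdown, against 53.5, 10.1 and 5.93 CPM in the control. Mcm6 and Mcm4, subunits of that helicase, had fitted values of -0.34 ± 0.13 and -0.29 ± 0.11, with adjusted p-values of 0.336 and 0.348. Among the 14 genes of the G1 phase, 13 were negative (median -0.16), with 4 at an unadjusted p under 0.05, beside 6.57% of all genes, and none past the threshold. Ccnd3, the D-type cyclin that is abundant in muscle, was at 94.8, 278 and 215 CPM in Cry2 knockdown cells and 139, 423 and 329.6 CPM in the control (log2 fold change -0.59 ± 0.15, adjusted p = 0.177). Ccnd3 was lower in the knockdown at each day while still higher at day 3 than at day 0 in both genotypes. Cdk6, a kinase partner of the D-type cyclins, was at 106, 51.5 and 41.0 CPM in the knockdown, against 128, 68.3 and 60.8 CPM in the control (log2 fold change -0.41 ± 0.11, adjusted p = 0.192).

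Ccnd1, the D-type cyclin named in the title of the study, was level at day 0 and furthest apart at day 3: 234, 24.1 and 23.1 CPM in Cry2 knockdown cells and 241, 74.4 and 30.4 CPM in the control at days 0, 3 and 5. The fitted value was -0.60 ± 0.25 (adjusted p = 0.373), and 27.2% of the 50-base words of its transcript also occur in other genes. Its response to differentiation, the change from day 0 to days 3 and 5, differed between the genotypes by -1.0 ± 0.39 (adjusted p = 0.807). Of 8 tested inhibitors and pocket proteins, Cdkn1c, the inhibitor p57, stood apart at 0.808, 5.93 and 0.378 CPM in the knockdown, against 0.880, 17.5 and 1.85 CPM in the control (log2 fold change -1.41 ± 0.33, adjusted p = 0.169). It was level at day 0 and lower in the knockdown at days 3 and 5, with 2 counts in the knockdown and 10 in the control at day 5. Of its 50-base words, 26.6% occur in another gene. Rb1 and Cdkn1b had log2 fold changes of -0.052 ± 0.10 and 0.017 ± 0.091.

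The other genes named in the study's title did not pass the test against the control. Bclaf1, a nuclear RNA-associated factor, was at 182, 123 and 138 CPM in Cry2 knockdown cells, 239, 148 and 158 CPM in the Cry1 knockdown and 199, 132 and 144 CPM in the control (log2 fold change -0.094 ± 0.071, adjusted p = 0.644). Tmem176b and its neighbour Tmem176a, membrane proteins of immune cells, were near the floor in both genotypes: Tmem176b was at 0.969, 1.91 and 0.378 CPM in the knockdown, against 2.35, 1.51 and 1.11 CPM in the control and Tmem176a at 0.969, 0.423 and 0.189 CPM in the knockdown, against 0.293, 0.840 and 0.371 CPM in the control. Both were higher in the Cry1 knockdown, where Tmem176b was at 5.63, 10.8 and 6.01 CPM and Tmem176a at 3.11, 5.82 and 3.71 CPM. Among 15 proteins that bind mRNA and set its stability, 13 were negative, 5 of these had an unadjusted p under 0.05, against 6.57% of all genes, and none passed. Zfp36l2, which directs AU-rich mRNAs to decay, was at 196, 60.6 and 60.1 CPM in Cry2 knockdown cells and 268, 138 and 122 CPM in the control, with the wider gaps at days 3 and 5 (log2 fold change -0.86 ± 0.13, adjusted p = 0.0791). The log2 fold change was -0.33 ± 0.10 for Igf2bp2 and -0.27 ± 0.10 for Hnrnpd, AUF1, with adjusted p-values of 0.250 and 0.321.

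No clock gene other than the target passed the threshold. Of 13 E-box repressors and outputs, 7 were positive and 6 negative (median 0.015). Bhlhe41, DEC2, a repressor that competes for E-boxes, was at 47.2, 104 and 102 CPM in Cry2 knockdown cells and 40.8, 84.3 and 78.6 CPM in the control. It was higher in the knockdown at each day by a small margin (log2 fold change 0.30 ± 0.077, adjusted p = 0.184). Cry1 was at 13.1, 19.3 and 22.9 CPM in the knockdown, against 20.5, 15.8 and 17.4 CPM in the control, lower in the knockdown at day 0 and higher at days 3 and 5 (log2 fold change 0.015 ± 0.20, adjusted p = 0.987). Per1 and Per2, partners of the cryptochromes, had log2 fold changes of -0.17 ± 0.10 and 0.19 ± 0.19, and Nr1d1, Rev-erb alpha, one of -0.19 ± 0.12, with adjusted p-values of 0.537, 0.740 and 0.563. Of 16 activators and regulators of cryptochromes, 7 were positive and 9 negative, with none at an unadjusted p under 0.05. Each library is 1 time of collection, and the hour of collection is not given in the labels, so no phase can be read from these levels.

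Neuronal cytoskeleton and membrane genes included 1 of the rises. Of 25 listed genes, 14 were tested: 9 were positive and 5 negative (median 0.21), and Adgrg1 rose. An unadjusted p under 0.05 was reached by 6 positive genes and 1 negative gene, where 5.8% of all genes were higher and 6.57% lower. The median ratio of the list was 0.35, -0.18 and 0.43 at days 0, 3 and 5, so it was below 0 at day 3. Of the 14 genes, 3, 7 and 5 were lower in the knockdown at these days. Tubb3, the neuronal beta tubulin, was at 325, 319 and 99.9 CPM in Cry2 knockdown cells and 225, 196 and 42.6 CPM in the control (log2 fold change 0.78 ± 0.15, adjusted p = 0.115). Mapt, tau, was at 2.75, 11.7 and 30.4 CPM in the knockdown, against 2.20, 5.88 and 19.5 CPM in the control (log2 fold change 0.70 ± 0.17, adjusted p = 0.172). Stmn2 ran opposite to Stmn4, at 73.5, 42.1 and 21.4 CPM in the knockdown, against 107, 83.0 and 39.5 CPM in the control (log2 fold change -0.77 ± 0.16, adjusted p = 0.148). Some neuronal genes, Snap25, Syt1, Elavl2 and Stmn3, were at most 0.378 CPM in the 6 libraries, while Tubb3 and Stmn2 were far above the floor in each. The summed level of the list was between 727 and 1242 CPM in Cry2 knockdown cells and between 479 and 1025 CPM in the control.

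Muscle genes differed between days in both genotypes, and no gene of the 5 muscle lists passed the test between genotypes. Adgrg1, which passed and is also known from myoblast fusion, was counted in the neuronal list and not in these. Of 10 myogenic transcription factors, 5 were positive and 5 negative, and none passed. Myod1, the factor that commits cells to muscle, was at 82.5, 96.3 and 129.6 CPM in Cry2 knockdown cells and 109, 137 and 123 CPM in the control, and Myog, myogenin, which drives differentiation, at 35.4, 557 and 717 CPM in the knockdown, against 58.7, 682 and 959 CPM in the control (log2 fold change -0.43 ± 0.31, adjusted p = 0.631). Myog was lower in the knockdown at each day, without passing the threshold. Pax7, the factor of muscle stem cells, was at 11.5, 10.6 and 7.0 CPM in the knockdown, against 6.01, 10.2 and 4.08 CPM in the control, and Myf5 at 58.1, 67.1 and 67.9 CPM in the knockdown, against 36.7, 66.7 and 60.2 CPM in the control. Of 25 fusion and adhesion genes, 11 were positive and 14 negative. Itgb1bp2, melusin, a partner of beta 1 integrin in striated muscle, was at 78.7 CPM in the knockdown and 144 CPM in the control at day 5, with its other days close (log2 fold change -0.51 ± 0.18, adjusted p = 0.310).

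Among 58 sarcomere genes, 33 were positive and 25 negative (median 0.062), 7 and 4 of them at an unadjusted p under 0.05, and none passed. Among all genes 5.8% were higher and 6.57% lower at that p, so the share of lower sarcomere genes was near that of all genes. Myl2, the regulatory light chain of slow and cardiac muscle, was at 0, 4.45 and 26.9 CPM in Cry2 knockdown cells and 0, 0.336 and 3.34 CPM in the control (log2 fold change 3.06 ± 0.41, adjusted p = 0.0815), with both genotypes at 0 at day 0. Myh7, the slow myosin heavy chain, lay the other way at 2.75, 23.9 and 94.2 CPM in the knockdown, against 4.99, 56.4 and 239.7 CPM in the control (log2 fold change -1.23 ± 0.23, adjusted p = 0.104), and 28.2% of its 50-base words occur in other genes. Mybpc1, the slow myosin-binding protein C, was at 0.323, 25.0 and 156 CPM in the knockdown, against 0.147, 56.1 and 289 CPM in the control (log2 fold change -0.95 ± 0.24, adjusted p = 0.179). Slow-fibre genes thus lay on both sides of the control. Cryab, a small heat shock protein of the Z-disc, was at 140.0, 588 and 531 CPM in the knockdown, against 138, 398 and 378 CPM in the control, and Acta1, skeletal actin, had a fitted value of 0.091 ± 0.38. Of 18 calcium-handling genes, 8 were positive and 10 negative, and Atp2a2, the slow calcium pump, was at 459, 796 and 1591 CPM in the knockdown, against 441, 704 and 1096 CPM in the control. Of 14 genes of the acetylcholine receptor and its synapse, 6 were positive and 8 negative, and Chrnb1, the beta subunit, was at 94.3, 176 and 176 CPM in the knockdown, against 84.5, 149.6 and 145 CPM in the control (log2 fold change 0.23 ± 0.069, adjusted p = 0.251).

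The amino acid stress response, the set of biosynthesis and transport genes that ATF4 switches on when amino acids run short, had, of the 41 lists, the median furthest from 0 within a single day. Of 37 tested genes, 36 had a negative fitted value (median -0.47), but none passed the threshold and 4 had an unadjusted p under 0.05, beside 6.57% of all genes lower at that p. All 37 were lower in the Cry2 knockdown at day 3, and 32 of them at least 2-fold, against 1.91% of all genes of at least 5 CPM. At day 5, 31 were higher, and at day 0, 26 were lower and 11 higher. Of all 12752 genes tested, 6531, 6379 and 6060 were lower at days 0, 3 and 5. The median ratio of the list was -0.07, -1.58 and 0.29 at days 0, 3 and 5. Among all tested genes 161 were both at least 2-fold lower at day 3 and higher at day 5, a joint count not made for the list. The summed level of the list was 4088, 3159 and 10980.0 CPM in Cry2 knockdown cells and 4543, 9602 and 9433 CPM in the control.

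Asns, asparagine synthetase, was at 113, 46.6 and 362 CPM in Cry2 knockdown cells and 129, 302 and 359 CPM in the control at days 0, 3 and 5. The control was already high at day 3 while the knockdown was below its own day 0 level, and by day 5 the genotypes were level. Psat1, an enzyme of serine synthesis, was at 229, 161 and 531 CPM in the knockdown, against 358, 628 and 556 CPM in the control. Phgdh, of the same pathway, was at 215, 87.9 and 316 CPM in the knockdown, against 235, 308 and 354 CPM in the control, and 63.1% of the 50-base words of Phgdh occur in other genes. Trib3, a pseudokinase target of ATF4, was at 14.2, 12.5 and 210.1 CPM in the knockdown, against 10.3, 153 and 127 CPM in the control. Chac1, which breaks down glutathione, was at 18.4, 24.8 and 215 CPM in the knockdown, against 20.5, 194 and 95.7 CPM in the control. Fgf21, a hormone that stressed muscle secretes, was at 1.61, 9.95 and 91.7 CPM in the knockdown, against 0.880, 89.8 and 45.8 CPM in the control, and Cth, of cysteine synthesis, at 6.14, 2.75 and 51.5 CPM in the knockdown, against 5.57, 45.0 and 40.6 CPM in the control. These 4 were lower at day 3 and higher at day 5 in the knockdown, and the day 3 ratios of Cth, Fgf21 and Trib3 were -3.95, -3.15 and -3.60 on the log2 scale. The Cry1 knockdown stood between them at day 3, with Asns at 166 and Trib3 at 64.5 CPM. Of 22 chaperones of the endoplasmic reticulum, 16 were positive and 6 negative, with a median ratio of 0.30 at day 3. The day 3 values come from 1 library of each genotype and have no replicate check.

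**Figure D4:**
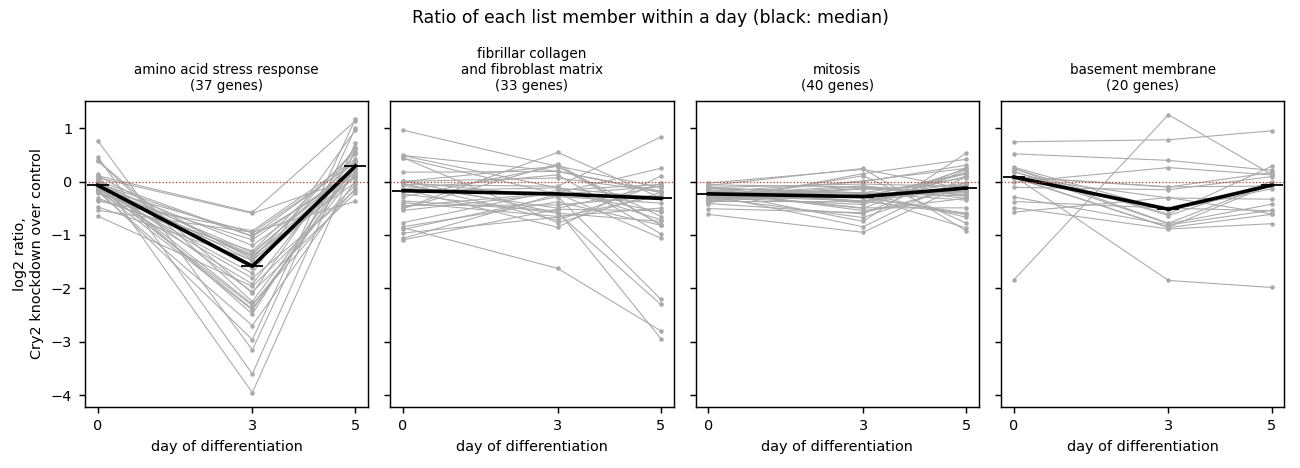
Log2 ratio of Cry2 knockdown over control at days 0, 3 and 5 for each tested member of 4 lists (grey lines), with the median of the list in black. In the amino acid stress list all 37 genes are below 0 at day 3 and 31 are above 0 at day 5, while the matrix and mitosis lists stay mostly below 0. Of all 12752 genes tested, 6379 were below 0 at day 3 and 6060 at day 5.

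Within single days, and with no replicate, 80 of 10706 genes (0.747%) were at least 2-fold higher in the Cry2 knockdown and 61 (0.57%) at least 2-fold lower at day 0. At day 3 the counts were 127 higher (1.16%) and 209 lower (1.91%) of 10914 genes, and at day 5 they were 147 higher (1.35%) and 196 lower (1.8%) of 10873 genes. At day 5 the lowest ratios included Btg3, an antiproliferative factor, at 2.27 CPM in Cry2 knockdown cells and 26.1 CPM in the control, and Dkk2, a secreted Wnt inhibitor, at 3.78 CPM in the knockdown, against 25.2 CPM in the control. Both were close to the control at day 0, and Btg3 at day 3 too. However, 30.5% of the 50-base words of Btg3 also occur in other genes, so its counts are uncertain. Padi2, a peptidylarginine deiminase, was among the highest at day 5, at 46.1 CPM in the knockdown, against 8.90 CPM in the control. Many of the remaining extremes likewise share sequence with other genes: 27.8% of the words of Gapdh, 20.8% of Ppia, 30.2% of Sumo2, 69.1% of Hmga1, 64.6% of Vcp, 54.8% of Eif3j1, 40.6% of Rps27a, 41.0% of Timm8a1 and 22.5% of Hmgn2. Gapdh, for one, was at 15.0, 118 and 100.1 CPM in the knockdown and 33.1, 5.04 and 93.8 CPM in the control, with no order between days or genotypes, and Ppia at 4.36, 79.8 and 49.6 CPM in the knockdown, against 146, 95.7 and 30.2 CPM in the control.

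Mitochondrially encoded genes had positive fitted values without passing the threshold. All 11 tested had a positive fitted value (median 0.48), 10 with an unadjusted p under 0.05 (5.8% of all genes were higher at that p), and the median ratio was 0.70, 0.69 and 0.0034 at days 0, 3 and 5. mt-Nd2, a subunit of complex I, was at 564, 1514 and 1524 CPM in the knockdown, against 372, 766 and 1289 CPM in the control, and mt-Nd4, another, at 597, 1213 and 1434 CPM in the knockdown, against 339, 815 and 1374 CPM in the control. mt-Co1, of cytochrome oxidase, was at 3954, 7501 and 6658 CPM in the knockdown, against 2429, 4727 and 7080.0 CPM in the control, so the knockdown was below the control at day 5. A separate pattern touched 1 library: mt-Co2, mt-Co3, mt-Atp6 and mt-Atp8 were at 611, 561, 513 and 109.5 CPM in the day 0 Cry2 knockdown library and at most 12.9 CPM in the other Cry2 knockdown libraries and the controls. Of the 50-base words of mt-Co2, mt-Co3 and mt-Atp6, 100%, 99.9% and 99.5% also occur in other annotated genes, so where a read was counted is uncertain for these. mt-Atp8 shares none of its 155 words. The shares were 62.2% for mt-Nd4 and 51.1% for mt-Co1, so these are uncertain as well. The part of that library in the other results was not tested, but with mitochondrial genes left out the same 3 genes passed, and without this library 17 genes passed, these 3 among them. Of 32 nuclear genes of oxidative phosphorylation, 28 were positive and 4 negative, with a median of 0.085, and 1 in each direction had an unadjusted p under 0.05, where 5.8% of all genes were higher and 6.57% lower.

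**Figure D5:**
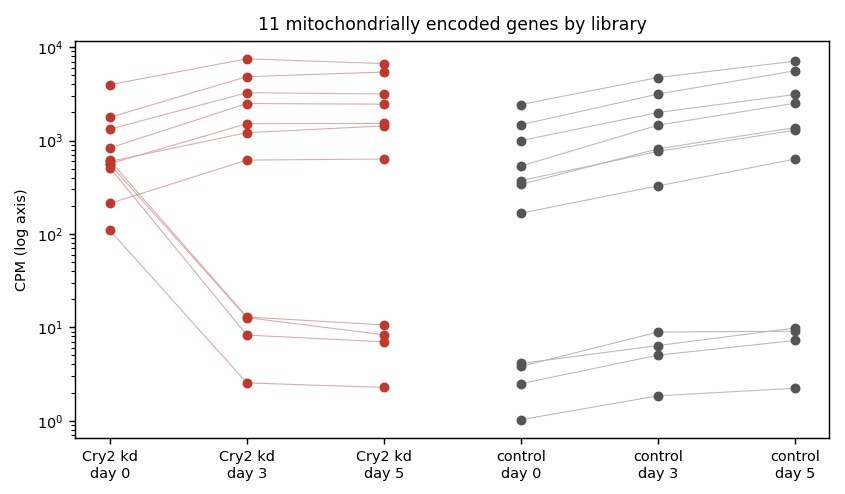
Level in CPM (log axis) of the 11 tested mitochondrially encoded genes in the 3 Cry2 knockdown libraries (red) and the 3 control libraries (grey), 1 point per gene, with lines joining a gene over the days of a genotype. The 4 genes mt-Co2, mt-Co3, mt-Atp6 and mt-Atp8 are high in the day 0 Cry2 knockdown library and low in the others.

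Signalling genes divided within their pathways. Of 16 Wnt genes, 7 were positive and 9 negative. Wnt9a, a ligand, and Axin2, a feedback target, had log2 fold changes of 0.62 ± 0.18 and 0.87 ± 0.24, and Tcf7l2, a transcription factor of the pathway, -0.39 ± 0.15. None passed, with adjusted p-values from 0.203 to 0.342 among these 3. Of 22 genes of TGF-beta and BMP signalling, 5 were positive and 17 negative. The receptor Tgfbr2 was at 274, 648 and 670.3 CPM in Cry2 knockdown cells and 194, 507 and 529.8 CPM in the control (log2 fold change 0.40 ± 0.10, adjusted p = 0.177). Of 14 chemokine and interleukin genes, 4 were positive and 10 negative. Il33, a nuclear alarmin, was at 124, 63.3 and 98.5 CPM in the knockdown, against 53, 47.5 and 49.9 CPM in the control, without overlap (log2 fold change 0.89 ± 0.16, adjusted p = 0.104). Csf1, the macrophage growth factor, was at 209, 113 and 188 CPM in the knockdown, against 269, 153 and 255 CPM in the control (log2 fold change -0.41 ± 0.087, adjusted p = 0.148). Egr1, an immediate early transcription factor, was at 122, 82.8 and 79.4 CPM in the knockdown, against 155, 125 and 155 CPM in the control, without overlap (log2 fold change -0.64 ± 0.13, adjusted p = 0.121), in a list of 26 with 7 positive and 19 negative. Jun, of the same list, lay above the control at 224, 231 and 213 CPM in the knockdown, against 191, 196 and 141 CPM in the control. Of 17 genes of reserve cells, Id and Notch, 12 were negative, and Hes1, a Notch target, was at 40.9, 25.6 and 16.6 CPM in the knockdown, against 50.3, 35.4 and 25.2 CPM in the control (log2 fold change -0.44 ± 0.10, adjusted p = 0.169). Of 16 insulin-like growth factor genes, 10 were negative, and the receptor Igf1r had a log2 fold change of -0.31 ± 0.094 (adjusted p = 0.241).

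The metabolic and ribosomal lists below had medians from -0.12 to 0.11. Of 25 glycolysis and hypoxia genes, 20 were positive (median 0.11), among them Bnip3, a mitophagy receptor, at a log2 fold change of 0.48 ± 0.13, and Egln3, an oxygen-sensing hydroxylase, at 0.31 ± 0.081 (adjusted p = 0.194 for both). Of 39 cytosolic ribosomal protein genes, 35 were negative (median -0.12), against 50.2% of all genes. At all 3 days 19 of them were lower, against 16.0% of all genes. Their median ratio was -0.13, -0.002 and -0.21 at days 0, 3 and 5. Many of these genes have copies elsewhere in the genome. Of 24 cholesterol synthesis genes, 13 were positive and 11 negative, and of 20 muscle energy genes, 14 were positive and 6 negative. Of 15 genes of muscle atrophy, 8 were positive and 7 negative. Foxo1, the transcription factor of that programme, was at 12.6, 18.0 and 24.2 CPM in Cry2 knockdown cells and 17.9, 30.7 and 43.4 CPM in the control (log2 fold change -0.72 ± 0.11, adjusted p = 0.0791). Of 17 interferon genes, 7 were positive, of 19 p53 targets 10, of 17 smooth muscle and YAP targets 7, of 17 retinoid genes 9 and of 18 SUMO genes 10. None of these lists held a gene past the threshold.

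Markers of other mesenchymal fates were measured beside the matrix genes. Of 11 adipocyte genes, 9 were negative and 2 positive. Lpl, lipoprotein lipase, was at 32.1, 66.3 and 135 CPM in Cry2 knockdown cells and 56.9, 104 and 152 CPM in the control (log2 fold change -0.51 ± 0.15, adjusted p = 0.222). Pparg, the master factor of fat cells, was at 7.43, 5.72 and 8.13 CPM in the knockdown, against 12.9, 8.90 and 9.08 CPM in the control, without overlap. The summed adipocyte level was between 1813 and 2814 CPM in Cry2 knockdown cells and between 1674 and 2955 CPM in the control. Of 5 osteoblast genes, 4 were negative, and Spp1, osteopontin, made most of the sum, at 4710.0, 398 and 191 CPM in the knockdown, against 4383, 696 and 497 CPM in the control. The summed osteoblast level was between 245 and 4849 CPM in Cry2 knockdown cells and between 550.0 and 4507 CPM in the control. Their part in the matrix values was not tested.

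Between the Cry2 and the Cry1 knockdown, 1007 of the 12752 genes (7.9%) passed the threshold. A difference here can lie on the side of either knockdown. Against the control, 330 of the 12752 genes passed in the Cry1 knockdown, and 3 in the Cry2 knockdown. The tests of the Cry2 knockdown against the control and against the Cry1 knockdown use the same spread and share the Cry2 knockdown libraries. Of the 12 largest rises, Col23a1, Adgrg1 and Stmn4 each had an adjusted p of 0.00142 against the Cry1 knockdown, with a log2 fold change of 1.84 ± 0.15 for Stmn4. Ptn and F3, by contrast, did not differ past the threshold between the knockdowns (adjusted p = 0.859 and 0.712): both were lower in the Cry1 knockdown too, Ptn at 7.11, 11.8 and 8.84 CPM and F3 at 6.08, 6.15 and 9.73 CPM. The response to differentiation, the change from day 0 to days 3 and 5 in the Cry2 knockdown minus the same change in the control, passed for 5 genes (0.0392%), 4 of them the mitochondrial genes high in the day 0 knockdown library, and the other the gene model Gm15464. Neither Col23a1 (log2 3.27 ± 1.01, adjusted p = 0.793) nor Cry2 (log2 -0.48 ± 0.38, adjusted p = 0.857) passed that test.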

How the data were processed

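PolyA RNA libraries of C2C12 cells were made with a TruSeq RNA v2 kit, which does not keep the strand, and the values used are raw gene counts deposited by the authors in 1 file per library. Per the submitters' processing notes, the tools were CASAVA 1.8, HISAT2 2.0.2 and featureCounts 1.4.6 of Subread with mm10; the annotation and the strand setting are not given in the sources used here. The files hold 47728 genes, 23515 with a count in some library, and 47223 identifiers matched a symbol.

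Counts were scaled by TMM and tested in edgeR 4.0.16 (limma 3.58.1, R 4.3.3) by quasi-likelihood F tests over all 9 libraries, with terms for genotype and day (4 residual degrees of freedom) and Benjamini-Hochberg adjustment over all 12752 genes kept by filterByExpr with genotype as the group. The change with differentiation was tested in a fit of genotype by stage (2 residual degrees of freedom). A standard error is the size of the log2 fold change over the root of its F. Ratios within 1 day carry a prior count of 1; genes needed at least 5 CPM in either library, and no test was made. Floors of 3 counts cover counting error only. The labels do not say that the days come from separate cultures. Deviations of same-day libraries from their genotype means correlated at 0.882, 0.569 and 0.803 at days 0, 3 and 5. Day is the stage of differentiation, so such a correlation arises whether or not cultures were paired, and it does not test pairing. Day was kept as the matching term for that stage.

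The genes compared and the 41 lists (910 genes, 805 tested, 2 past the threshold) were chosen with earlier results of these data known. Named genes were Cry1, Cry2, Ccnd1, Tmem176a, Tmem176b and Bclaf1, genes past a threshold, the 12 largest rises and falls at an unadjusted p under 0.01, up to 6 members of lowest p per list, the 6 highest and 6 lowest ratios of each day among genes of at least 20 CPM, and genes 2-fold apart at all 3 days. Gene models and pseudogenes were skipped; 1 of the 12 largest rises is not reported here; genes outside this rule, such as the defining markers of other cell types, Des and Acta1, were chosen to check identity. Alternatives were RLE factors, other filters on low counts, the Wald test of DESeq2 1.42.0, the 6 libraries alone, fits without the day term, each library or day left out, no mitochondrial genes, a prior count of 5 and a minimum of 20 CPM; filterByExpr with the design matrix was added after seeing the data. The Cry2 knockdown comparison was tested on simulated data of this depth (12593 genes). It found 61% of the 1.5-fold, 96% of the 2-fold and 100% of the 4-fold changes, with 3.64% of 165 calls on unchanged genes. The simulation changed only genes of at least 5 CPM on average, by the same fold at all 3 days. It drew the spread of each gene from the common trend and held no culture difference shared by days. These shares are therefore not the power in the real libraries. Ptn and F3, at least 2-fold lower at all 3 days, did not pass there. Sequence shared between genes was measured as the 50-base words of the longest transcript found in other genes. Tables and plots were made in Python 3.11.15 (pandas 2.3.3, numpy 2.4.6, matplotlib 3.10.9).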

Additional observations from a re-analysis of the deposited data

Results flagged for a closer look

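The change from day 0 to days 3 and 5 differed between the Cry2 knockdown and the control for 5 genes, by a test of the difference itself in edgeR. For mt-Co3 the difference was -6.98 ± 0.34 (SE, log2 scale, adjusted p = 0.00114), for mt-Co2 -6.67 ± 0.36 (adjusted p = 0.00166), for mt-Atp6 -7.36 ± 0.35 (adjusted p = 0.00114) and for mt-Atp8 -6.48 ± 0.52 (adjusted p = 0.0168). These 4 stood out through 1 library, the day 0 Cry2 knockdown, and the transcripts of mt-Co2, mt-Co3 and mt-Atp6 share at least 99.5% of their 50-base words with other annotated genes, whereas that of mt-Atp8 shares none (0 of 155). The fifth, the gene model Gm15464, had 0, 66 and 124 counts in the Cry2 knockdown and 712, 0 and 0 counts in the control at days 0, 3 and 5. Its fitted difference of 22.02 depends on the prior count and is no bound, and 49.7% of its 50-base words occur in other genes. The part of read assignment in these 5 results was not tested. No group holds enough libraries for a check of single outlying values.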

How the results depend on the processing

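The count of 3 genes past the threshold was 3 with RLE factors and without mitochondrial genes, 6 with a filter of 1 CPM in 3 libraries, 11 with filterByExpr by design matrix, 88 with DESeq2 and 316 with no filter on low counts. The 3 genes were among those called under each of these. With the 6 libraries alone it was 4, and the adjusted p-values were 0.0499 for Col23a1, 0.0625 for Cry2 and 0.0781 for Adgrg1. With no replicate block for day it was 0, over all 9 libraries and over the 6 alone (151 and 97 genes at an unadjusted p under 0.05; adjusted p = 0.9999 for all 3 genes), so the calls rest on matching by day. With 1 library or 1 day left out it was from 0 to 23: 0 without the day 5 Cry2 knockdown, 1 without the day 3 Cry2 knockdown or the day 5 control, 17 without the day 0 Cry2 knockdown, and up to 14 without a Cry1 knockdown library. Over these 12 fits the values were from -1.88 to -1.49 for Cry2, 2.64 to 3.48 for Col23a1 and 0.92 to 1.21 for Adgrg1, with adjusted p-values of up to 0.251, 0.357 and 0.251. A fit without a library assumes that the remaining days of that genotype vary like the others.

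The 1007 genes between the knockdowns became 1528 with no filter and 665 with DESeq2, and the 5 genes of the differentiation response became 48 and 9. At a minimum of 20 CPM, the genes 2-fold higher and lower were 24 and 19 at day 0, 35 and 108 at day 3, 48 and 73 at day 5, and 1 and 1 at all 3 days. Values that changed sign had adjusted p-values above the threshold in the main fit against the control. With 1 library or day left out, Cry1 ran from -0.18 to 0.33, Tmem176a from -0.95 to 0.84, Per2 from -0.00055 to 0.40 and Gapdh from -0.23 to 2.14. Trib3 ran from -1.80 to 0.64, Chac1 from -1.73 to 0.61, Fgf21 from -2.55 to 0.97, Cth from -1.93 to 0.27 and Extl1 from -2.16 to 0.44. Gm15464 ran from -2.13 to 9.72, and passed the threshold in 2 of 21 other settings, without the day 0 control and without day 0. Cry1 was -0.0029 with no filter, and Gm15464 was -1.49 without the day term, over all 9 libraries and over the 6 alone. The cause was not tested. With 1 library for each genotype and day, changes under about 2-fold were recovered in part only in simulated data. In the real libraries, larger differences did not all pass either. A level below 0.440 CPM is not distinguished from 0 in any library.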
